A study of Mus musculus with 11 samples.

Results

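The 9 genes described here encode the cohesin ring (*Smc1a*, *Smc3*, *Rad21*, *Stag1*, and *Stag2*), its loader (*Nipbl*), its regulators (*Pds5a* and *Pds5b*), and the insulator protein CTCF (*Ctcf*). They were chosen by gene symbol, as genes of the chromatin looping machinery of which several are mutated in myeloid leukaemia, with earlier results of these data known. All 9 were among the 12647 genes of the RNA-seq count table, and all 9 passed the filter on low counts that left 12625 genes for testing.

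Cohesin is a ring that encircles DNA. SMC1A and SMC3 form its arms, RAD21 closes it, and a ring holds either STAG1 or STAG2. NIPBL loads the ring and drives it along chromatin to extrude loops, the PDS5 proteins regulate its release and its stable binding, and CTCF bound to DNA marks where loops stop. Cohesin also holds sister chromatids together from DNA replication until anaphase. In haematopoietic stem and progenitor cells (HSPCs), loss of cohesin function is known to alter self-renewal and differentiation.

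RNA was sequenced from LSKs (Lin-Sca1+Kit+ bone marrow cells, a population of HSPCs) of p53+/+, p53R248W/+, and p53-/- mice on the C57BL/6 background, as 9 libraries, 3 of each genotype. The p53+/+ mice were HUPKI mice, in which part of the mouse *Trp53* gene is replaced by human sequence, and the p53R248W/+ mice were heterozygous for the R248W missense mutation knocked into that allele, under the endogenous promoter. The p53-/- mice lack p53 in all tissues, and all mice were described as young and free of tumours. The comparisons addressed how mutant p53 and loss of p53 changed gene expression in HSPCs. The labels do not say whether each library came from a separate mouse, so the p-values measure the spread between these samples. Levels are given as CPM, the counts of a gene per 1000000 counts of its library, with the totals scaled by edgeR's TMM factors, and differences were tested by edgeR's quasi-likelihood test with Benjamini-Hochberg adjustment over the 12625 genes, with an adjusted p below 0.05 taken as a call.

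Libraries held 18021375 to 29750702 counts, of which the 9 genes took 0.0670% to 0.136%. All 12 LSK marker genes were detected, with *Kit*, the receptor used in the sort, at 427 to 861 CPM. *Trp53* itself was at 125, 207, and 376 CPM in p53+/+, 219, 240, and 235 CPM in p53R248W/+, and 129, 127, and 112 CPM in p53-/- libraries. These counts cover the whole gene and do not show which exons were read, so they do not check the p53-/- label. The Y-linked gene *Ddx3y* was read at 33.6, 25.1, and 64.9 CPM in p53+/+ replicate 2, p53R248W/+ replicate 2, and p53R248W/+ replicate 3, and at 0.112 CPM or less in the other libraries. *Xist*, transcribed from the inactive X chromosome, was nonetheless read at 65.0 and 149 CPM in the first 2 of these libraries. Sex-linked expression thus differed between libraries within the p53+/+ and p53R248W/+ groups, while *Ddx3y* was at 0 counts in every p53-/- library.

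The genes lie on chromosomes X (*Smc1a*, *Stag2*), 19 (*Smc3*), 15 (*Rad21*, *Nipbl*), 9 (*Stag1*), 5 (*Pds5a*, *Pds5b*), and 8 (*Ctcf*) of GRCm38 (mm10). In GENCODE M21, exons of *Stag2*, *Pds5a*, and *Ctcf* overlap exons of genes on the opposite strand, and the strand used in counting was not stated. Of these neighbours, 0 were in the count table. RefSeq promoter sequences were matched for 6 of the 9 genes, and not for *Nipbl*, *Rad21*, and *Stag2*. The 250 bases upstream of the start are shown for *Smc3*, which was called lower in p53-/- LSKs, and for *Smc1a* and *Ctcf*, whose levels varied with it across libraries. All 3 are on the plus strand of GRCm38.p6, at chr19:53600146-53600395 (*Smc3*), chrX:152016178-152016427 (*Smc1a*), and chr8:105636288-105636537 (*Ctcf*). Capitals mark, on either strand, matches to the GC box GGGCGG, to the CCAAT box, and to TTTGAA, the core of the CHR element found in many cell cycle promoters.
Smc3: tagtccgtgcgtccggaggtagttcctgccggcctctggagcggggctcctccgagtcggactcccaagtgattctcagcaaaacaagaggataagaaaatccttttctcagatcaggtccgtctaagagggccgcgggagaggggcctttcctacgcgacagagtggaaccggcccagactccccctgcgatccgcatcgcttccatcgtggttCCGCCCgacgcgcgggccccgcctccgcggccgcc
Smc1a: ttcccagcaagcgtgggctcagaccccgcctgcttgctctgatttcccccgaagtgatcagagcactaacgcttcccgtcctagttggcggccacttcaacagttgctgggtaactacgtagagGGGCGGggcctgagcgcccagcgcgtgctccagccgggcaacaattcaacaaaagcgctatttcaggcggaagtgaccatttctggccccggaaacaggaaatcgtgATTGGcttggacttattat
Ctcf: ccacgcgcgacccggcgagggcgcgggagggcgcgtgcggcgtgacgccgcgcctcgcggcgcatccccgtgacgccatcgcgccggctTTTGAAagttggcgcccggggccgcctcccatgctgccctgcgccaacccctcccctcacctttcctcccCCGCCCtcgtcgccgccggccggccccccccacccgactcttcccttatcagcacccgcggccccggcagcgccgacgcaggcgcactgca

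With both strands searched, the GC box was in 6 of the 6 member promoters, against 32.7% of 32851 mouse promoter windows of the same length. The GC content of these 6 windows was 56.8% to 80.4%, and they were not compared with windows of like GC content. RefSeq and GENCODE M21 differ in the start of some of these genes. The *Stag1* window (chr9:100643198-100643447) lies inside the GENCODE gene, which starts at 100597798. The *Pds5a* and *Pds5b* windows extend into their GENCODE genes. CCAAT was in 3 of 6 (*Smc1a*, *Stag1*, *Pds5b*), against 33.8%, and TTTGAA in 2 of 6 (*Ctcf*, *Pds5b*), against 16.0%. The E2F-type sequences TTTGGCGC and TTTCCCGC were each in 1 promoter, of *Pds5a* and *Stag1*, against 0.417% and 0.895% of all windows. The decamer of the p53 response element was in 0 of 6 and in 7.13% of all windows. With 6 windows a count of 0 cannot be told apart from that share, and *Nipbl*, *Rad21*, and *Stag2* were not searched. No match overlapped another in these 6 windows, and a match is a description of the letters only.

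The levels of 5 of the 9 genes were lower in every p53-/- library than in every p53+/+ library, against 16.0% of all genes tested. These were the ring genes *Smc1a*, *Smc3*, and *Rad21*, the loader gene *Nipbl*, and *Ctcf*. *Smc3* and *Nipbl* passed the test, 2 of 9 genes called lower against 2.25% of all genes tested. The other 4 genes, which encode the STAG and PDS5 pairs, overlapped between the genotypes. In bulk RNA, fewer cells of a type and less RNA per cell cannot be told apart.

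*Nipbl*, the loader, had the largest fitted difference among the 9. It was at 44.4, 74.3, and 76.2 CPM in p53+/+ libraries and at 13.1, 29.9, and 21.4 CPM in p53-/- libraries. Every p53-/- library was thus below the lowest p53+/+ library, and the means were 65.0 ± 17.8 and 21.4 ± 8.40 CPM (SD, n = 3 each). The log2 fold change was -1.60 ± 0.38 (SE), a level 3.03-fold lower (adjusted p = 0.0448, edgeR).

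*Smc3*, an arm of the ring and the site of its acetylation, was at 108, 167, and 192 CPM in p53+/+ and at 62.4, 72.0, and 74.3 CPM in p53-/- libraries. The p53-/- values lay close together and under the lowest p53+/+ library, with a log2 fold change of -1.16 ± 0.28 (SE) or 2.24-fold (adjusted p = 0.0450, edgeR). *Smc1a*, the partner arm, was at 187, 288, and 297 CPM in p53+/+ and at 79.0, 127, and 116 CPM in p53-/- libraries. Its fitted difference of -1.26 ± 0.34 (SE) was close to that of *Smc3*, but it missed the threshold (adjusted p = 0.0592, edgeR).

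*Ctcf* was at 141, 176, and 188 CPM in p53+/+ and at 93.2, 106, and 116 CPM in p53-/- libraries. The groups did not overlap, with a log2 fold change of -0.68 ± 0.18 (SE) that also missed the threshold (adjusted p = 0.0551, edgeR). *Rad21*, the clasp of the ring, was at 102, 114, and 105 CPM in p53+/+ and at 89.2, 85.9, and 73.2 CPM in p53-/- libraries. Although the libraries did not overlap, the difference of -0.37 ± 0.15 (SE) was small (adjusted p = 0.165, edgeR).

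*Stag1*, whose protein is 1 of the alternative STAG subunits, was at 76.8, 91.1, and 90.9 CPM in p53+/+ and at 105, 71.2, and 78.8 CPM in p53-/- libraries. *Stag2*, which is recurrently mutated in myeloid malignancy, was at 122, 164, and 111 CPM in p53+/+ and at 134, 96.9, and 134 CPM in p53-/- libraries. Both genes overlapped between the genotypes, with log2 fold changes of -0.024 (95% interval -0.46 to 0.41) for *Stag1* and -0.12 (-0.55 to 0.31) for *Stag2*. The fitted sign of both changed when p53+/+ replicate 2 was left out, to 0.018 for *Stag1* and 0.064 for *Stag2*. The PDS5 genes also overlapped. *Pds5a* was at 66.7, 105, and 93.7 CPM in p53+/+ and at 77.3, 44.8, and 69.8 CPM in p53-/- libraries. *Pds5b* was at 48.7, 86.3, and 69.3 CPM in p53+/+ and at 47.5, 47.4, and 76.0 CPM in p53-/- libraries. Their log2 fold changes were -0.47 (95% interval -1.07 to 0.13) and -0.26 (-0.79 to 0.28). A fall of the fitted size of *Nipbl* (interval -2.44 to -0.76) was thus outside the interval of each of these 4 genes. A fall of the size fitted for *Rad21* (-0.37) was inside all 4 intervals. That for *Ctcf* (-0.68) was inside those of *Pds5a* and *Pds5b*.

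**Figure D1:**
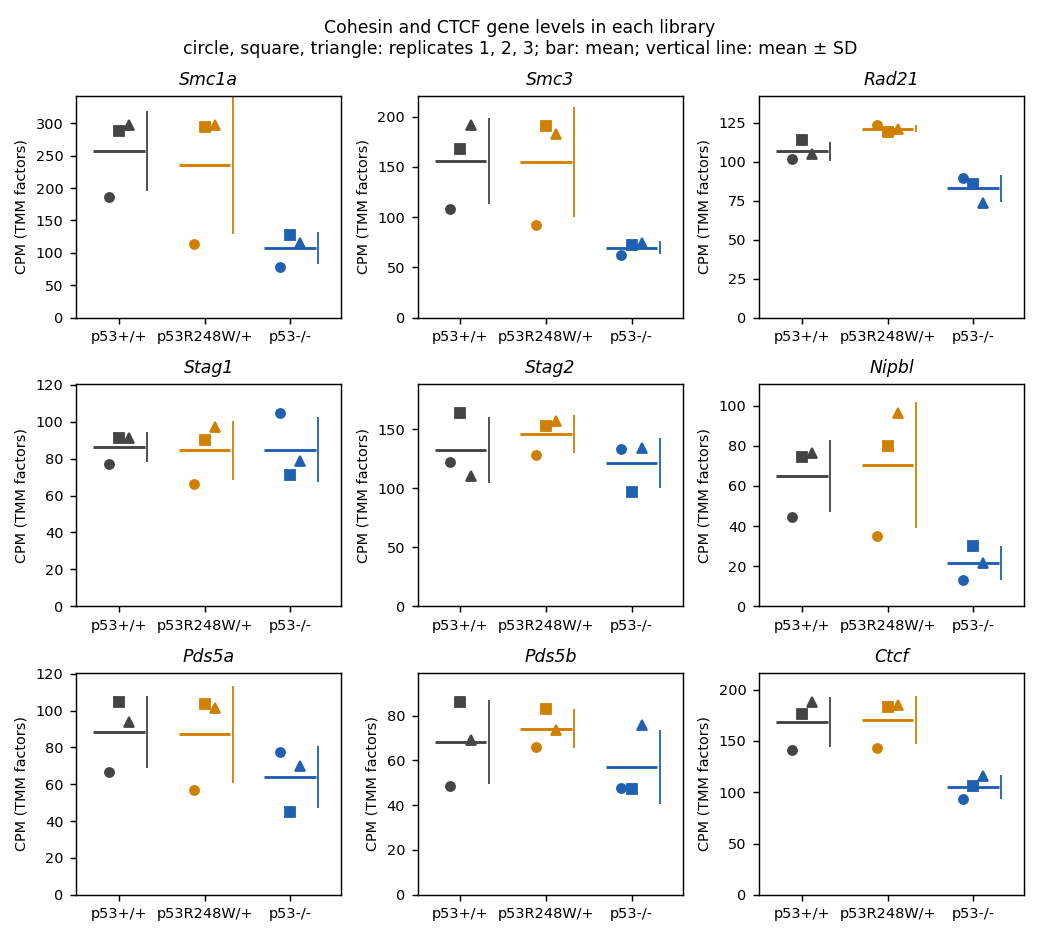
Level of each gene (CPM with TMM factors, axis from 0) in the 3 libraries of each genotype, with the mean as a bar and the SD as a vertical line. For Smc1a, Smc3, Rad21, Nipbl, and Ctcf every p53-/- library is below every p53+/+ library, and p53R248W/+ replicate 1 (orange circle) is lowest of its group for Smc1a, Smc3, Nipbl, and Ctcf but not for Rad21.

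In counts, 2 of the 9 genes were called lower in p53-/- LSKs, against 2.25% of all genes tested, and 5 of 9 had an unadjusted p below 0.05 and a lower level, against 12.5%. The 5 genes without overlap compare with 16.0% of all genes. The fitted log2 fold change was below 0 for all 9, with a median of -0.47, while the median over all genes tested was -0.00. The number of calls depended on the libraries included. It was 0 without p53+/+ replicate 2, p53+/+ replicate 3, p53R248W/+ replicate 2, or any 1 of the 3 p53-/- libraries, 1 without p53R248W/+ replicate 3, 3 without p53+/+ replicate 1, and 4 without p53R248W/+ replicate 1, the 2 further genes of these 4 being *Smc1a* and *Ctcf*. The count over all genes moved as well, from 442 in all 9 libraries to 1485 without p53R248W/+ replicate 1, to 499 without p53+/+ replicate 1, to 278 and 294 without p53R248W/+ replicates 2 and 3, and to 37 to 103 without p53+/+ replicate 2 or 3 or any 1 of the p53-/- libraries.

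In p53R248W/+ against p53+/+ LSKs, 0 of the 9 genes were called by edgeR (0.00792% of all genes), by DESeq2, or by limma-voom, and 0 of 9 had an unadjusted p below 0.05 in edgeR (0.958%). Log2 fold changes ran from -0.13 for *Smc1a* to 0.18 for *Rad21*, with a median of 0.02 beside 0.01 over all genes. *Rad21* was at 124, 119, and 121 CPM in p53R248W/+ libraries, each above the highest p53+/+ library at 114 CPM. It was the single gene of the 9 without overlap, against 5.04% of all genes, and its interval of -0.14 to 0.51 includes 0. For *Nipbl*, with 35.2, 79.9, and 96.4 CPM in p53R248W/+ libraries, the log2 fold change was 0.12 with a wide interval of -0.70 to 0.93. *Ctcf* was at 143, 184, and 185 CPM, and its interval was narrower, from -0.37 to 0.40. The alternative STAG subunits overlapped with p53+/+ as well. *Stag1* was at 66.2, 90.2, and 96.9 CPM (interval -0.46 to 0.40) and *Stag2* at 128, 153, and 157 CPM (-0.29 to 0.58).

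Replicate 1 of p53R248W/+ stood apart from the other libraries of that genotype. *Smc1a* was at 113 CPM in it against 295 and 298 CPM in replicates 2 and 3, *Smc3* at 92.3 against 190 and 183 CPM, and *Pds5a* at 56.8 against 103 and 101 CPM. *Rad21* did not follow this pattern, and neither did *Pds5b* as clearly, at 66.0 against 83.1 and 73.5 CPM. The same library had the highest total count of the 9. Its summed level of 10 markers of cycling cells, 2925 CPM, lay between those of replicates 2 and 3 (3173 and 2774 CPM). The single markers differed. *Mki67* (28.2 against 124 and 134 CPM), *Top2a* (202 against 350 and 318 CPM), and *Mcm2* (435 against 574 and 477 CPM) were lowest in replicate 1. *Ccnb1*, *Cdk1*, *Tyms*, *Rrm2*, and *Mcm5* were highest in it. The part of cycling cells in this pattern was not tested. Without this library the log2 fold change against p53+/+ turned from -0.13 to 0.19 for *Smc1a* and from -0.0061 to 0.25 for *Smc3*, and 0 of the 9 genes were called.

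The direct comparison of p53R248W/+ with p53-/- LSKs uses the same p53-/- libraries as the first comparison and is not a second test of them. *Nipbl* was higher in p53R248W/+ by 1.72 ± 0.38 (log2, SE, adjusted p = 0.0366, edgeR) and *Smc3* by 1.16 ± 0.28 (adjusted p = 0.0457). These 2 of 9 calls compare with 2.34% of all genes. *Ctcf* differed by 0.70 ± 0.18 (adjusted p = 0.0543), *Rad21* by 0.55 ± 0.15 (adjusted p = 0.0621), and *Smc1a* by 1.13 ± 0.34 (adjusted p = 0.0837, edgeR). In all, 5 of 9 genes had an unadjusted p below 0.05 and a higher level, against 11.6% of all genes. The libraries did not overlap for 4 of 9 (12.1% of all genes), *Smc1a* overlapping through p53R248W/+ replicate 1. The count of calls was 0 without p53+/+ replicate 3, p53R248W/+ replicate 2, p53R248W/+ replicate 3, or any 1 of the p53-/- libraries, 1 without p53+/+ replicate 2, and 4 without p53R248W/+ replicate 1. Over all genes, calls in either direction went from 434 to 1559 without p53R248W/+ replicate 1, and to 77 to 319 in the fits with 0 or 1 member called. With Y-linked expression as a covariate it was also 0, and *Nipbl* then differed by 1.01 and *Smc3* by 0.68.

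**Figure D2:**
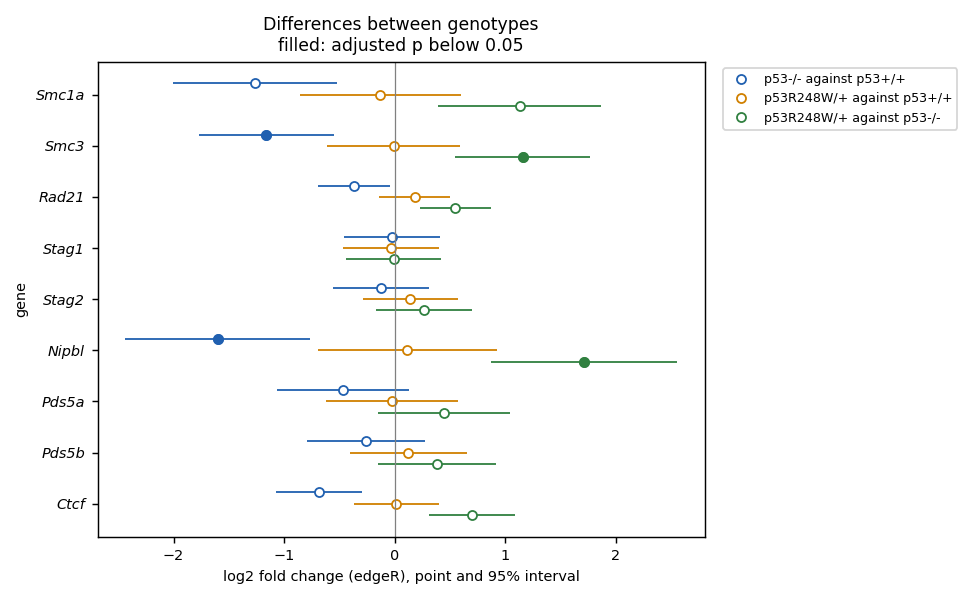
Log2 fold change of each gene (edgeR, point) with its 95% interval (line) in the 3 comparisons of genotypes, filled where the adjusted p was below 0.05. Nipbl and Smc3 are filled in both comparisons with p53-/- LSKs, and no gene is filled for p53R248W/+ against p53+/+, where every interval includes 0.

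Levels of different genes were compared per length, as CPM per kilobase of the deposited gene length. In p53+/+ libraries the order was *Smc1a* (64.8 ± 15.5, SD, n = 3), *Ctcf* (44.1 ± 6.43), *Smc3* (32.1 ± 8.89), *Rad21* (29.6 ± 1.69), *Pds5a* (21.3 ± 4.73), *Stag2* (21.3 ± 4.50), *Stag1* (14.4 ± 1.36), *Pds5b* (9.32 ± 2.57), and *Nipbl* (6.04 ± 1.66). The range over libraries overlapped for the neighbours *Smc1a* and *Ctcf*, *Ctcf* and *Smc3*, *Smc3* and *Rad21*, *Pds5a* and *Stag2*, and *Pds5b* and *Nipbl*, so their order is not resolved. The ring arms, the clasp, and *Ctcf* were thus read at higher levels per length than the loader. In p53R248W/+ libraries the order was alike, but *Rad21* (33.6 ± 0.648) came before *Smc3* (32.0 ± 11.3) and *Stag2* (23.5 ± 2.54) before *Pds5a* (21.01 ± 6.33), each pair with overlapping ranges. In p53-/- libraries *Ctcf* (27.5 ± 3.03) and *Smc1a* (27.02 ± 6.33) led with overlapping ranges, and *Smc3* (14.3 ± 1.31) had moved from rank 3 to rank 6, next to *Stag1* (14.1 ± 2.92). *Nipbl* was last in all 3 genotypes, at 1.99 ± 0.781 in p53-/- libraries.

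**Figure D3:**
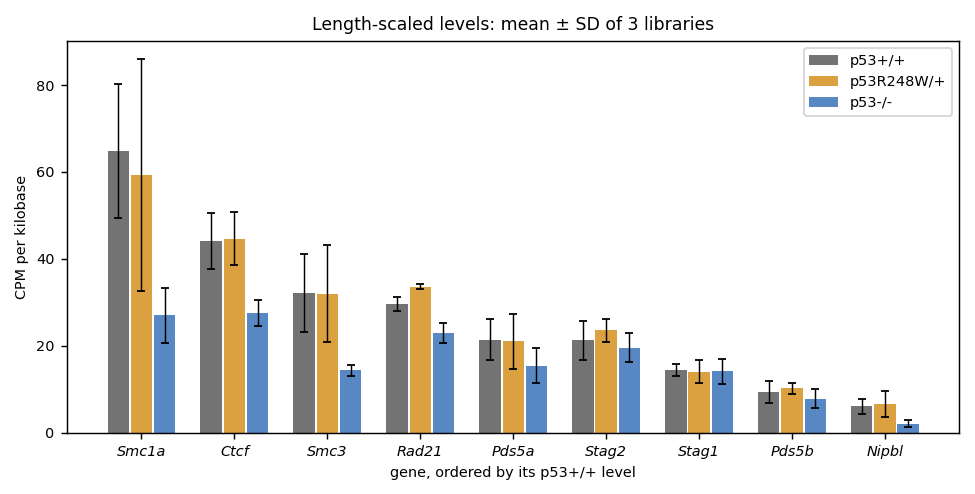
Mean level per gene length (CPM per kilobase, bars from 0) with the SD of 3 libraries (lines) in each genotype, ordered by the p53+/+ level. Smc1a is highest in p53+/+ and p53R248W/+ LSKs and Nipbl lowest in all 3 genotypes.

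Because the STAG subunits and the PDS5 proteins are alternatives within the complex, their ratios were also compared. The length-scaled ratio of *Stag2* to *Stag1* ran from 1.18 to 1.74 in p53+/+, 1.57 to 1.87 in p53R248W/+, and 1.24 to 1.65 in p53-/- libraries, so *Stag2* was the higher in all 9. The ratio of *Pds5b* to *Pds5a* ran from 0.414 to 0.467, 0.412 to 0.659, and 0.349 to 0.618, with *Pds5a* the higher in all 9. In the 6 comparisons of these ratios between genotypes, two-sided exact permutation p-values were 0.30 to 1.00 (0.80 to 1.00 after adjustment over the 6). With 3 libraries against 3 the test cannot go below 0.10. *Smc1a* was 1.497 to 2.16 times *Smc3* per length in every library, although both levels varied more than this.

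Across the 9 libraries *Smc1a*, *Smc3*, *Nipbl*, and *Ctcf* varied together. Their 6 pairwise Pearson correlations of log2 CPM were 0.93 to 0.98, and 0.86 to 0.96 after each genotype's mean was removed. Over all 36 pairs of the 9 genes the range was 0.09 to 0.98, and -0.31 to 0.96 with the genotype means removed. These are descriptions over 9 libraries whose values share depth and composition. Genes whose levels followed the mean standardized level of the 9 closely, among 11475 genes with an average log2 CPM of at least 1, included *Rev3l* (r = 0.98), *Tlk2* (0.98), *Ckap5* (0.98), and *Ccp110* (0.98). Of these, *Ckap5* was called lower in p53-/- than in p53+/+ LSKs (log2 fold change -1.44, adjusted p = 0.0467, edgeR).

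All 9 genes are longer than the median gene tested, 2866 bases, from 3605 bases for *Rad21* to 10762 bases for *Nipbl*, and libraries differed in the level of long genes. Genes were placed in 10 classes of length, and the median deviation of a class from its mean over the 9 libraries was read in each. In the longest class (6247 bases or more), which holds *Nipbl* and *Pds5b*, it was -0.38 (log2) in p53R248W/+ replicate 1, -0.24 and -0.22 in p53-/- replicates 1 and 2, and 0.07 in p53-/- replicate 3. In p53+/+ replicate 2 it was 0.32 and in p53R248W/+ replicate 3 0.34. For p53-/- against p53+/+ the median log2 fold change of this class was -0.23, and relative to it *Nipbl* was at -1.37 and *Pds5b* at -0.02. Relative to the medians of their own classes, *Smc3* was at -1.10, *Smc1a* at -1.27, *Ctcf* at -0.69, and *Rad21* at -0.37. The differences of *Smc1a*, *Rad21*, and *Ctcf* were set against a class whose own median was 0.01. The part of gene length in the calls was not tested.

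**Figure D4:**
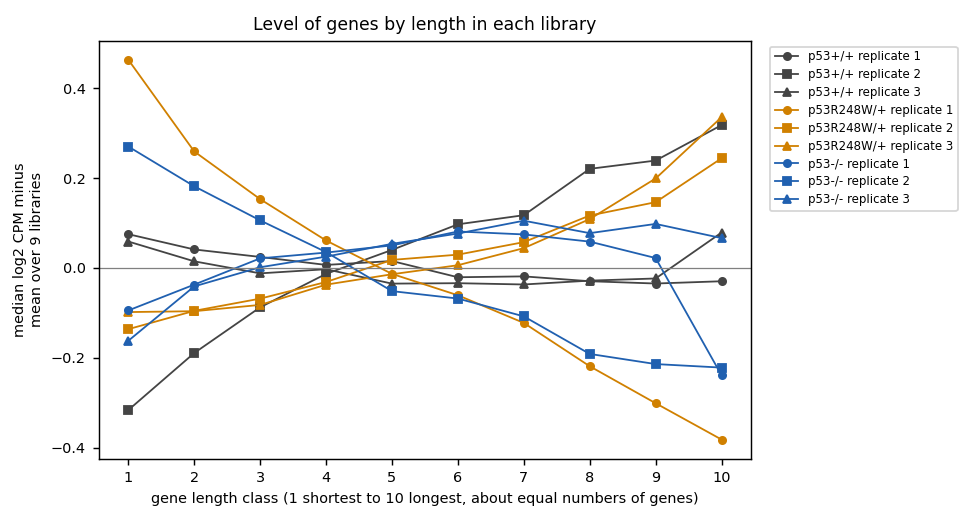
Median deviation of log2 CPM from the mean over the 9 libraries, for 10 classes of gene length from shortest to longest, with 1 line for each library. The line of p53R248W/+ replicate 1 falls from 0.46 to -0.38 and that of p53+/+ replicate 2 rises from -0.32 to 0.32, and p53-/- replicates 1 and 2 are low in the longest class.

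Genes of related complexes were read from lists of 51 genes, of which 46 were in the count table and tested. In p53-/- against p53+/+ LSKs, 7 of the 46 were called lower and 1 higher, 39 of 46 fitted values were below 0, and the median was -0.50. Over all 12625 genes tested, 284 were called lower and 158 higher, and 6321 fitted values were below 0. Of the 8 condensin genes, which encode the complex that compacts mitotic chromosomes, 2 were called lower and all 8 were below 0. These were its arms *Smc4*, at -2.44 ± 0.30 (log2, SE, adjusted p = 0.00330, edgeR), and *Smc2*, at -1.96 ± 0.23 (adjusted p = 0.00312). *Smc4* was at 28.6, 31.8, and 22.6 CPM in p53-/- libraries and at 95.9 CPM in the lowest p53+/+ library. Among the 8 genes of separase and cohesin protection, *Sgol2a*, the shugoshin that shields centromeric cohesin, was called lower at -1.86 ± 0.33 (adjusted p = 0.0187). Among the 6 genes of the Smc5/6 complex, a relative of cohesin in DNA repair, *Smc6* was called at -1.21 ± 0.24 (adjusted p = 0.0260). The list of replication-coupled cohesion had 2 of 9 called lower, among them the helicase gene *Ddx11* at -1.03 ± 0.25 (adjusted p = 0.0481), and loading, release and acetylation had 1 of 6. For the insulation and looping partners of CTCF the count was 0 of 7 in edgeR, with 2 of 7 at an unadjusted p below 0.05 in either direction, beside 2950 of the 12625 genes. *Rec8*, the meiotic counterpart of *Rad21*, was the gene called higher, at 0.92 ± 0.22 (adjusted p = 0.0455), from 7.81 to 10.5 CPM in p53+/+ to 17.0 to 19.5 CPM in p53-/- libraries.

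**Figure D5:**
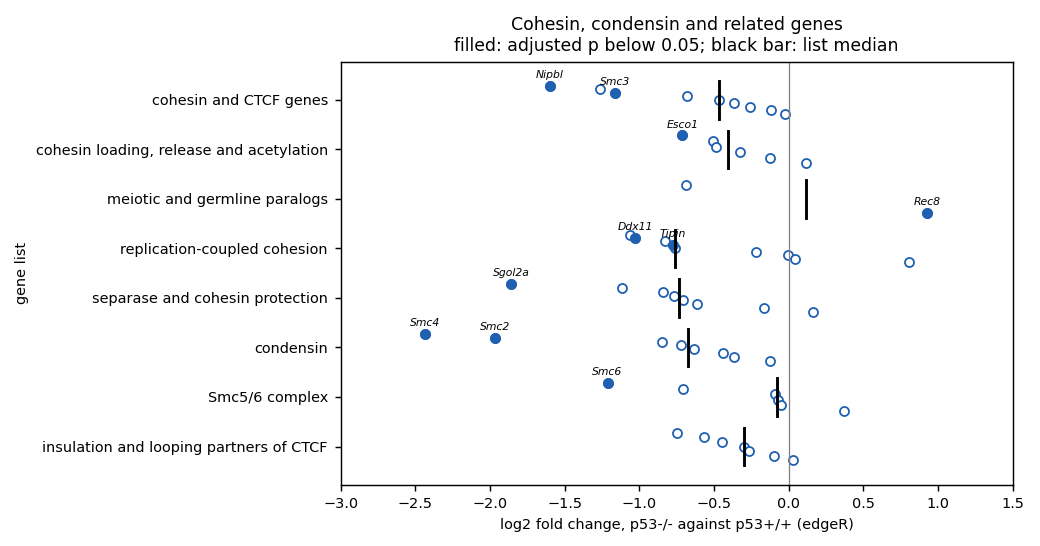
Log2 fold changes (edgeR) of the cohesin and CTCF genes and of the 7 lists of related genes in p53-/- against p53+/+ LSKs, 1 point a gene, filled and named where the adjusted p was below 0.05, with a black bar at each list's median. Smc4 and Smc2 of condensin are farthest to the left, and Rec8 is the filled point on the right.

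In p53R248W/+ against p53+/+ LSKs, 0 of these 46 genes were called by edgeR, with a median of 0.00. An unadjusted p below 0.05 was seen for 1 of the 46, beside 0.958% of all genes. This was *Rec8*, at 0.86 ± 0.22 (log2, SE, unadjusted p = 0.00225, edgeR) and at 15.5 to 19.9 CPM in p53R248W/+ libraries. Between p53R248W/+ and p53-/- LSKs *Rec8* differed by -0.061. Against p53-/- LSKs, with the shared libraries, 6 of the 46 were called higher and 1 lower, beside 295 and 139 of the 12625 genes. *Smc4* differed by 2.55 (adjusted p = 0.00252, edgeR), *Sgol2a* by 1.97 (adjusted p = 0.0129), *Smc2* by 1.95 (adjusted p = 0.00252), *Smc6* by 1.20 (adjusted p = 0.0249), and *Tipin*, which encodes a replication fork protein, by 0.83 (adjusted p = 0.0372). *Chtf8*, a subunit of the clamp loader used in cohesion, was the gene called lower, at -1.41 (adjusted p = 0.0281).

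Markers of cycling cells were read beside these genes. The summed level of 10 cycling markers was 2678 to 3508 CPM in p53+/+, 2774 to 3173 CPM in p53R248W/+, and 1818 to 2693 CPM in p53-/- libraries, with p53-/- replicate 1 within the p53+/+ range. Replicate 1 had the highest sum of the p53-/- group. In it *Smc1a*, *Smc3*, *Nipbl*, and *Ctcf* were the lowest of the 3 libraries, and *Rad21*, *Stag1*, and *Pds5a* the highest. Of the cycling markers, *Mki67* was lowest in it (17.1 against 19.7 and 22.0 CPM) and *Top2a* highest (133 against 73.1 and 58.4 CPM). Both were below the lowest p53+/+ library (68.3 and 210 CPM), as was *Cdk1* (120.6 against 120.8 CPM). *Ccnb1*, *Ccna2*, *Mcm2*, *Mcm3*, *Mcm5*, *Tyms*, and *Rrm2* lay within the p53+/+ range. The highest markers in the sum of this library were *Mcm2*, *Mcm3*, and *Mcm5* (467, 629, and 678 CPM). All 10 cycling markers had a fitted value below 0 in p53-/- against p53+/+ LSKs. Of these, 2 were called, *Mki67* at -2.34 ± 0.46 (adjusted p = 0.0255, edgeR) and *Top2a* at -1.64 ± 0.31 (adjusted p = 0.0234). Their part in the levels of the cohesin genes was not tested. For these and the next counts, 6321 of the 12625 genes tested had a fitted value below 0 and 6304 above. Of all genes, 284 were called lower and 158 higher, and 12.5% were lower at an unadjusted p below 0.05 (edgeR). Of the 12 LSK markers, 10 were above 0 and *Hlf*, a stem cell transcription factor, was called higher (1.14 ± 0.22, adjusted p = 0.0242). The summed level of 11 detected granulocyte and monocyte markers was 2480 to 6432 CPM in p53+/+, 3972 to 8572 CPM in p53R248W/+, and 1739 to 2146 CPM in p53-/- libraries, and all 11 were below 0 with 0 called by edgeR and 6 at an unadjusted p below 0.05. Of these, *S100a8*, *S100a9*, *Ltf*, and *Camp* were high mainly in replicate 2 of p53+/+ and of p53R248W/+. *S100a8* was at 799 CPM in p53+/+ replicate 2 against 10.4 and 36.0 CPM in replicates 1 and 3. In p53R248W/+ it was at 548 CPM in replicate 2 against 44.3 and 14.6 CPM. Erythroid markers summed to 24.9 to 92.3 CPM, megakaryocyte markers to 123 to 195 CPM, B lymphoid markers to 76.3 to 133 CPM, and T and NK lymphoid markers to 9.31 to 16.4 CPM over the 9 libraries. The globin genes, *Pax5*, the *Cd3* genes, and *Ly6g* were not in the count table. The part of these markers was likewise not tested.

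The X-linked genes *Smc1a* and *Stag2* were also read in libraries with 3 counts or fewer on each Y-linked gene. Among 2 p53+/+ (replicates 1 and 3) and 3 p53-/- libraries of this kind, a choice made after the Y-linked counts were seen, *Smc1a* differed by -1.17 (adjusted p = 0.0403, edgeR) and *Stag2* by 0.064 (adjusted p = 0.902). *Nipbl* differed by -1.49 (adjusted p = 0.0488), *Smc3* by -1.11 (adjusted p = 0.0428), and *Ctcf* by -0.65 (adjusted p = 0.117), so that 3 of the 9 genes were called in these 5 libraries, where 236 of all genes were called in either direction.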

How the data were processed

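RNA-seq of LSKs was available for 9 libraries. The authors deposited unnormalized counts of reads per gene, as whole numbers. Per the labels, reads were aligned to mm10 with STAR 2.5.2b and counted with featureCounts of Subread 1.5.0. Strandedness and the annotation behind the deposited gene lengths were not given in the sources used here. The lowest total of a gene was 37 counts. The authors also deposited their own tests between genotypes (fold changes with p-values and false discovery rates), which were not used. The ChIP-seq samples were not analysed here.

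Counts of 18021375 to 29750702 per library were fitted in edgeR 4.0.16 (R 4.3.3) with filterByExpr, TMM factors, and 1 quasi-likelihood model over all 9 libraries. The biological coefficient of variation was 0.281. Log2 CPM used a prior count of 2. Intervals are 95% and cover the spread between libraries. The alternatives tried included limma-voom (limma 3.58.1), DESeq2 1.42.0, other size factors and filters, a replicate block, a Y-linked covariate, fits to fewer libraries, and leaving out each library.

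The members, gene lists, and alternatives were chosen with earlier results of these data known. Named beyond the members were up to 5 called genes of the related lists per direction with the largest change, the 5 genes of most similar pattern (1 of which is not reported here), *Trp53*, and sex-linked genes. *Kit* and the marker genes, *Mki67*, *Top2a*, and *Hlf* among them, were named after their values were seen. Ratios were compared by exact permutation.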

Additional observations from a re-analysis of the deposited data

How the results depend on the processing

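For p53-/- against p53+/+ LSKs, *Nipbl*, *Smc3*, *Smc1a*, *Ctcf*, and *Rad21* kept their direction under all 19 alternatives, and *Nipbl* and *Smc3* their call under 12 and 11. The adjusted p ran from 0.000925 to 0.175 for *Nipbl* and from 0.00174 to 0.188 for *Smc3*. Of the 9 genes, 4 were called by DESeq2, with at least 10 counts in every library, or in the 6 libraries of these genotypes, and 0 by limma-voom, with 0 to 4 when a library was left out. Related genes called were 15 by DESeq2, 4 by limma-voom, and 4 in the libraries with 3 or fewer counts on each Y-linked gene (2 to 13 leaving out a library). All genes called were 442, 1552 by DESeq2, 297 by limma-voom, and 574 with at least 10 counts in every library. They were 894 in the 6 libraries and 236 in those of low Y-linked counts (37 to 1485 leaving out a library).

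For p53R248W/+ against p53-/- LSKs, 5 members were called by DESeq2 and 0 by limma-voom, with the Y-linked covariate, or in 6 libraries (0 to 4 leaving out a library). Related genes called were 11 by DESeq2 and 3 with the covariate (2 to 14), and all genes 1325 by DESeq2, 162 with the covariate, and 208 in 6 libraries (77 to 1559). Over the alternatives other than leaving out a library, limma-voom included, all genes called ran from 162 to 1325. For p53R248W/+ against p53+/+ LSKs, 0 members were called under any of the 18 alternatives, and all genes called were 6 by DESeq2 and 0 with at least 10 counts in every library. The cause of these shifts was not tested.

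With the replicate block, 4 members were called against p53+/+ and 4 between p53R248W/+ and p53-/-, and all genes called were 882, 672, and 2 for p53R248W/+ against p53+/+. Deviations of libraries with the same number correlated at -0.11 to 0.54, over 0.1 in 3 of 9 pairs. These were p53+/+ with p53R248W/+ for replicates 1 (0.36) and 2 (0.54), and p53R248W/+ with p53-/- for replicate 3 (0.13). For p53+/+ with p53-/- the values were -0.095 to 0.0057. The numbers were therefore not taken to pair the samples across the 3 genotypes. In the titles, p53+/+ and p53R248W/+ libraries of the same number have names of like form, and p53-/- libraries have names of another form. A pairing of p53+/+ with p53R248W/+ libraries alone was not tested. No batch is named in the sample titles, so a difference in handling of the p53-/- libraries could not be told apart from genotype.

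Signs turned for members that were not called. With the Y-linked covariate, log2 fold changes were 0.090 (*Stag1*) and 0.041 (*Stag2*) for p53-/- against p53+/+, -0.29 (*Nipbl*) and -0.073 (*Ctcf*) for p53R248W/+ against p53+/+, and -0.018 (*Stag2*) and -0.037 (*Pds5a*) for p53R248W/+ against p53-/-. In the libraries of low Y-linked counts, p53-/- against p53+/+ gave 0.017 (*Stag1*) and 0.064 (*Stag2*). Leaving out a library, p53-/- against p53+/+ ran from -0.19 to 0.088 (*Stag1*) and -0.23 to 0.064 (*Stag2*), and p53R248W/+ against p53-/- from -0.12 to 0.15 (*Stag1*). For p53R248W/+ against p53+/+ the ranges were -0.34 to 0.19 (*Smc1a*), -0.21 to 0.25 (*Smc3*), -0.14 to 0.11 (*Stag1*), -0.18 to 0.43 (*Nipbl*), -0.19 to 0.20 (*Pds5a*), -0.068 to 0.33 (*Pds5b*), and -0.096 to 0.12 (*Ctcf*).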
